A study of Homo sapiens with 6 samples.

Results

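The members are the nascent-strand peaks of human chromosome 19 that start in a pair of zinc finger gene clusters, from 19.7 to 25 Mb (the 19p12 cluster, 5.3 Mb) and from 55 to 60.7 Mb (the 19q13.4 clusters, 5.7 Mb) on the T2T-CHM13 assembly. They were taken by position alone, within bounds chosen with earlier results of these data known. In all, 4184 of the 945863 peaks in the 4 deposited lists qualified, 0.442% of all peaks on 0.353% of the assembly length. Of these, 885 came from control 1, 1060 from control 2, 1406 from siORCA 1 and 833 from siORCA 2. The rest of chromosome 19, 45.7 Mb without the stretch from 25 to 30 Mb around the centromere, served as reference within each sample.

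Nascent-strand sequencing isolates short DNA made next to active replication origins, by sizing the DNA and digesting strands that lack the RNA primer of new synthesis. U2OS cells, an established human osteosarcoma line, received either the control siRNA named gl3 (2 samples) or an siRNA against ORCA (2 samples). No other difference between the groups is listed, and 2 further samples, of genomic DNA, stay outside what follows and were not analysed here. Separate cultures are not named for the replicates, so spreads and p-values describe these samples alone and may be technical.

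Zinc finger genes of the KRAB class code for DNA-binding proteins whose KRAB domain recruits the co-repressor TRIM28 and, through it, enzymes that place the histone mark H3K9me3. Many bind transposable elements: ZNF91, a gene of 19p12, restrains SVA elements. The genes arose by tandem duplication, lie side by side, and are themselves known to carry H3K9me3 across long stretches. ORCA, which LRWD1 encodes, is a partner of the origin recognition complex and is known to associate with chromatin that carries repressive marks. The comparison asks whether origin activity in such chromatin differs when ORCA is targeted.

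In the RefSeq gene table of GRCh38.p14, 262 of 1451 protein-coding genes on chromosome 19 (18.1%) have a symbol that starts with ZNF, ZFP or ZSCAN. The longest unbroken run holds 27 genes, from ZNF737 to ZNF681, and includes ZNF43, ZNF208 and ZNF91. Other runs of 24 genes (ZNF627 to ZNF791 and ZNF565 to ZNF793) and of 20 genes (ZNF283 to ZNF180) show that zinc finger genes are not limited to 1 stretch of the chromosome. These positions belong to another assembly, so no peak was assigned to a gene, and no histone mark was measured in these samples. The names of the clusters therefore stand for their positions, and the gene content of each peak was not checked. Genes of other families may lie inside the clusters, and the rest of the chromosome may hold zinc finger genes. Cluster against rest is therefore a comparison of positions, not of zinc finger genes with other genes.

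The 2 clusters differed from each other far more than siORCA differed from control. The 19p12 cluster had far fewer peaks per Mb than the rest of chromosome 19 in every sample, and was nearly empty in siORCA 2 alone. Averaged over their length, the 19q13.4 clusters came close to the density of the rest of the chromosome, with a dense block between sparser parts.

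The 19p12 counts were 58 peaks for control 1, 164 for control 2, 210 for siORCA 1 and 20 for siORCA 2. Per Mb these were 10.9, 30.9, 39.6 and 3.77 peaks, in the same order. The rest of chromosome 19 had 156, 176, 251 and 160 peaks per Mb, so every sample was lower in 19p12, by 5.68-fold in control 2 at the least and 42.3-fold in siORCA 2 at the most. The log2 ratio of densities was −3.60 ± 1.34 (SD, n = 4, lower in 4 of 4 samples; two-sided exact permutation of signs, p = 0.125, the smallest that 4 samples allow). Without siORCA 2, which lay farthest from the others, it was −3.001.

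The share of 19p12 covered by peaks was 0.317% for control 1, 0.830% for control 2, 1.014% for siORCA 1 and 0.113% for siORCA 2. In the rest of chromosome 19 they covered 6.20%, 6.05%, 8.20% and 6.18%, in the same order. The log2 ratio of covered shares was −3.99 ± 1.35 (SD, n = 4, lower in 4 of 4 samples; exact permutation of signs, p = 0.125), and −3.39 without siORCA 2. The cluster was also below the other chromosomes, which had 56.7, 74.2, 104 and 62.3 peaks per Mb. Against these the log2 ratio of densities was −2.27 ± 1.28 (SD, n = 4, lower in 4 of 4; exact permutation of signs, p = 0.125).

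The 19q13.4 counts were 827 peaks for control 1, 896 for control 2, 1196 for siORCA 1 and 813 for siORCA 2. Per Mb these were 145, 157, 210 and 143 peaks, each a little under the rest of the chromosome in the same sample. The log2 ratio of densities was −0.17 ± 0.0627 (SD, n = 4, lower in 4 of 4 samples; exact permutation of signs, p = 0.125), which is 1.13-fold fewer on average. Peaks covered 5.84%, 5.56%, 6.97% and 5.82% of these clusters, in the same order, a log2 ratio of −0.13 ± 0.0701 (SD, n = 4, lower in 4 of 4; exact permutation of signs, p = 0.125). Set against the other chromosomes, 19q13.4 was denser in 4 of 4 samples, with a log2 ratio of 1.16 ± 0.149 (SD, n = 4; exact permutation of signs, p = 0.125). The clusters thus lay close to their own chromosome and well above the others.

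Within each sample 19p12 was 5.08-fold to 37.8-fold sparser than 19q13.4, a log2 ratio of −3.43 ± 1.37 (SD, n = 4; exact permutation of signs, p = 0.125). The samples differed little from each other in 19q13.4 and strongly in 19p12, where siORCA 2 and control 1 were low and control 2 and siORCA 1 were high.

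**Figure D1:**
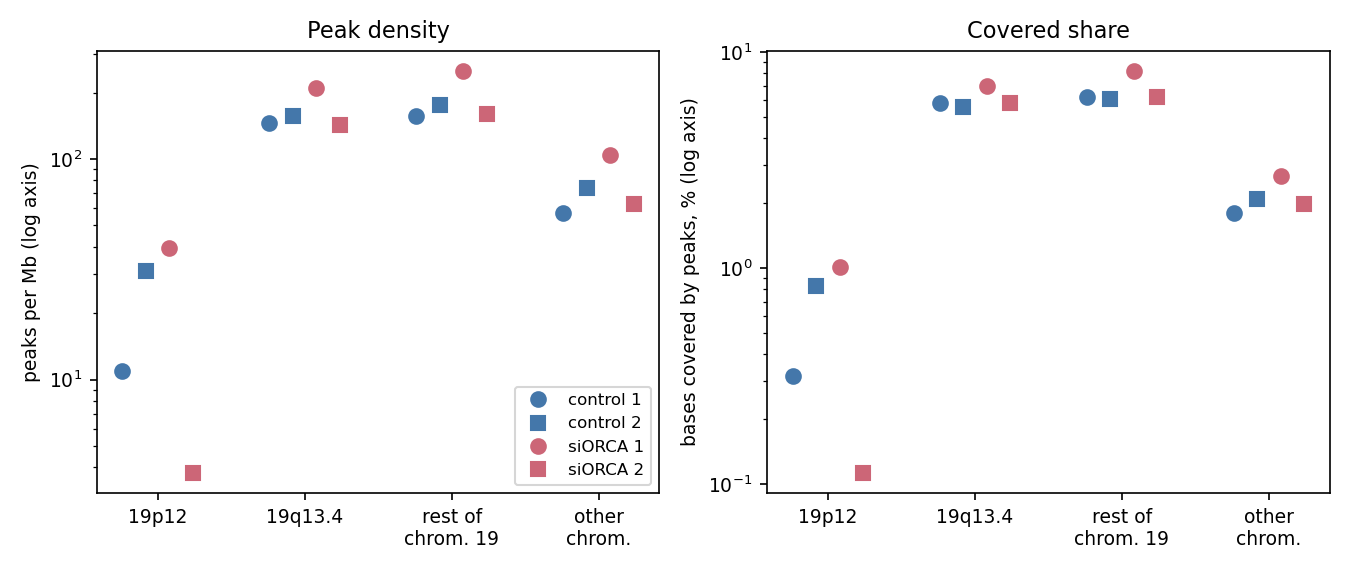
Peaks per Mb (left) and percent of bases covered by peaks (right), both on log axes, for the 4 samples in 19p12, 19q13.4, the rest of chromosome 19 and the other chromosomes. Each point is 1 sample. All 4 points of 19p12 lie below all other points, between 3.77 and 39.6 peaks per Mb, and they spread more than those of 19q13.4, which run from 143 to 210.

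As a share of each sample's own list, 19p12 held 0.0320% of peaks in control 1 (Wilson 95% interval 0.0248% to 0.0414%) and 0.0695% in control 2 (0.0597% to 0.0810%). It held 0.0636% in siORCA 1 (0.0555% to 0.0728%) and 0.0101% in siORCA 2 (0.00652% to 0.0156%). These intervals cover counting error only. The 2 low and the 2 high samples are separate beyond that error, but each pair joins 1 control with 1 siORCA sample. In 19q13.4 the shares ran from 0.362% in siORCA 1 to 0.456% in control 1.

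The lists that were low in 19p12 were also the shortest. Control 1 had 181215 peaks in all and siORCA 2 had 198518, against 235865 for control 2 and 330265 for siORCA 1, and their read depth is unknown. Only the order of the shortest pair was turned in 19p12, where siORCA 2 was below control 1. With each list shortened to the same covered length from its weakest peaks, 19p12 still had 58, 129, 99 and 20 peaks in these samples. Counting only peaks at −log10 q of 3 or above, it had 11, 53, 117 and 12. The siORCA 2 and control 1 lists were the sparsest under each of these treatments, and the part of list length in the 19p12 counts was otherwise not tested.

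Other sparse windows of the genome showed the same low sample at a smaller contrast. Outside chromosome 19, 554 windows of 1 Mb had a mean of under 5 kb covered by peaks. They took 2.14% of all covered length for control 1, 3.40% for control 2, 2.79% for siORCA 1 and 1.12% for siORCA 2. The 5 windows wholly inside 19p12 took 0.0220%, 0.0540%, 0.0519% and 0.00460% in the same order. In both sets siORCA 2 was lowest and control 2 highest; the part of such a difference between lists in the 19p12 values was not tested.

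The drop at the near end of 19p12 was steep. In the 1 Mb before it, the lists had 169, 197, 305 and 175 peaks (control 1, control 2, siORCA 1 and siORCA 2). In the last 100 kb before 19.7 Mb they had 15, 18, 39 and 18 peaks, and in the first 100 kb inside it 10, 17, 15 and 9. The next 100 kb held 2, 4, 13 and 1. Of these 2 steps the larger in ratio lay at 19.8 Mb for both controls and siORCA 2, and at the bound itself for siORCA 1.

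Inside 19p12, the first 0.5 Mb had 38, 56, 94 and 20 peaks per Mb, and the inner 4.3 Mb had 9.07, 31.4, 37.9 and 2.33. The last 0.5 Mb, which reaches the centromere, had 1 peak in control 2 and 0 in the other lists. Leaving out both end stretches, an alternative added after the data were seen, gave a log2 ratio of densities of −3.85 against the rest of the chromosome. The cluster was thus no less sparse without its ends.

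In bins of 100 kb, 26 of 53 bins of 19p12 (49.1%) had no peak for control 1, 9 (17.0%) for control 2, 9 (17.0%) for siORCA 1 and 44 (83.0%) for siORCA 2. Only 5 of the 53 bins were empty in all 4 lists. In the rest of chromosome 19 between 0.438% and 1.53% of 457 bins were empty in a list, and in 19q13.4 none of 57 was empty in any list. The bins that held most peaks were partly the same between lists: the rank correlation of covered length over the 53 bins was 0.722 between control 2 and siORCA 1 and 0.306 between siORCA 1 and siORCA 2, with the other 4 pairs in between. These bins are neighbours on 1 chromosome and are not independent.

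The gap from the end of 1 peak to the start of the next had a 19p12 median of 43.4 kb for control 1, 16.3 kb for control 2, 10.2 kb for siORCA 1 and 36.5 kb for siORCA 2. In 19q13.4 the medians ran from 2.36 kb to 3.26 kb, and in the rest of chromosome 19 from 2.02 kb to 3.06 kb. The longest gap inside 19p12 was 1096 kb, in siORCA 2, against 206 kb in siORCA 1.

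The longest stretches of 19p12 with no peak in any list ran from 24549690 to the end of the cluster at 25000000, 450 kb, and from 24394509 to 24549481, 155 kb. They lie next to each other at the centromere side, parted by a single peak of control 2. No other stretch of 19p12 without a peak was over 100 kb over all 4 lists at once. In 19q13.4 the longest such stretches were 33.4 kb, from 56300341 to 56333735, and 29.9 kb, from 59419295 to 59449179.

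**Figure D2:**
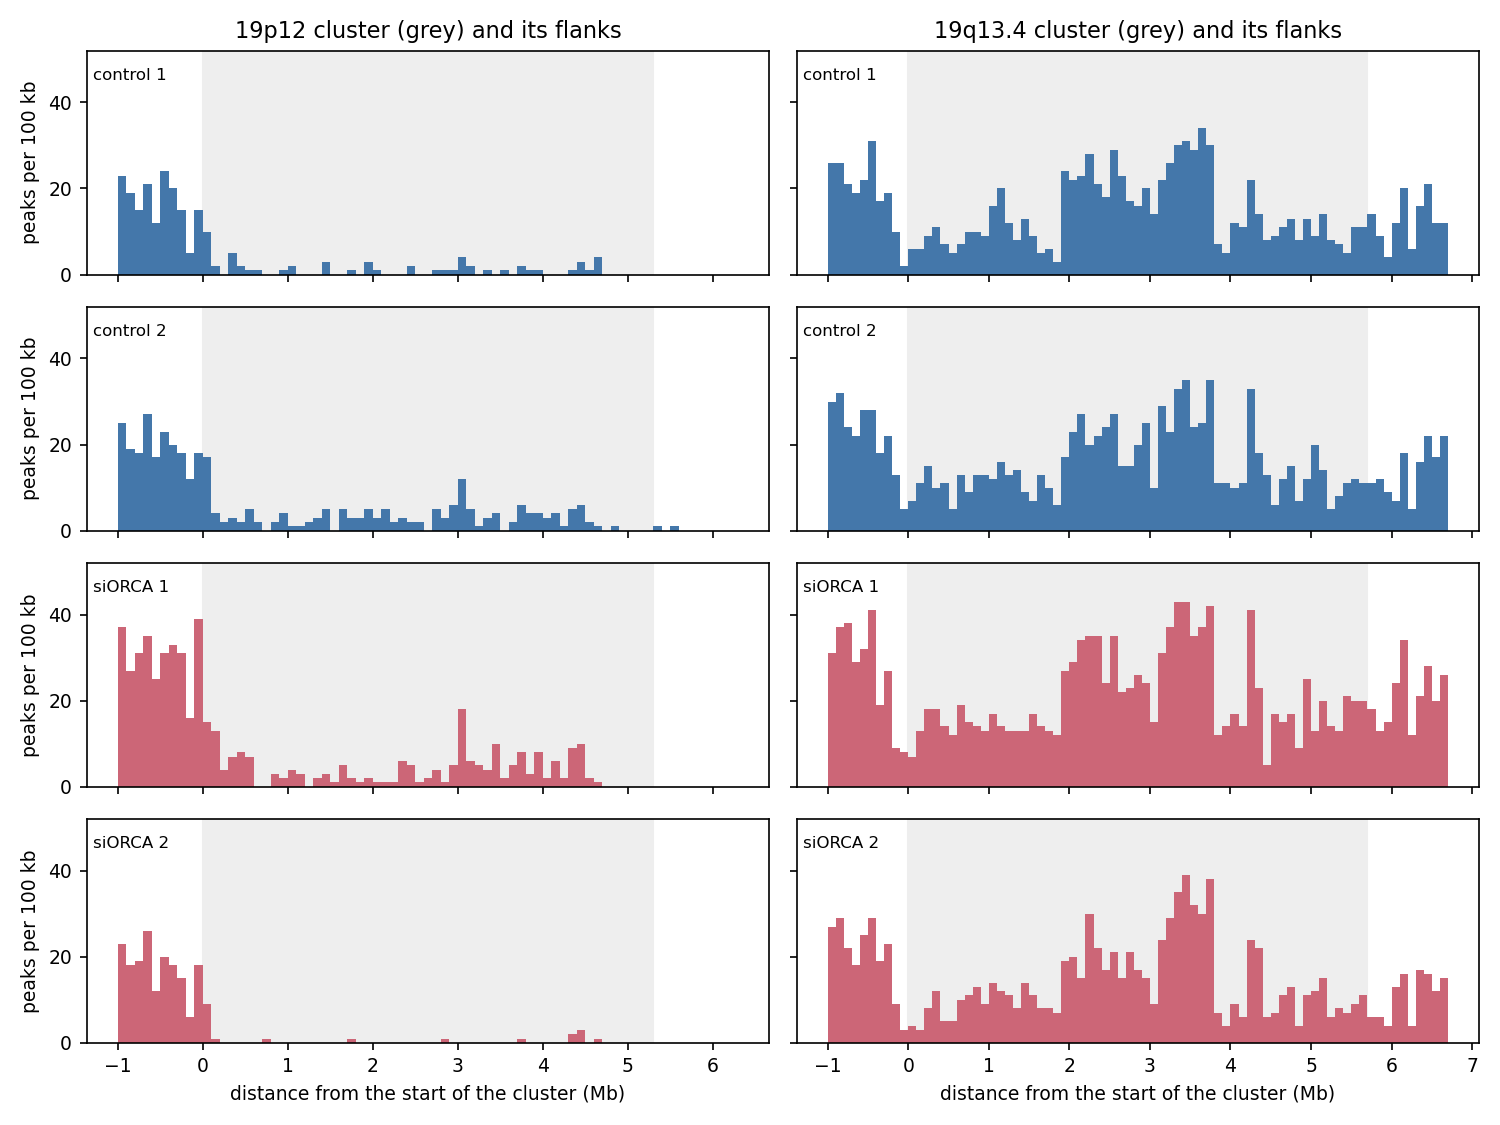
Number of peaks that start in each bin of 100 kb, from 1 Mb before each cluster (grey) to about 1 Mb after it, against the distance from the start of the cluster in Mb, 1 row per sample. In 19p12 counts fall within 0.2 Mb of the start and stay at 18 or fewer per bin, while in 19q13.4 they step up 1.9 Mb from the start and down at 3.8 Mb in all 4 samples.

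The 19q13.4 clusters were not even. A block from 56.9 to 58.8 Mb, whose bounds were chosen after the counts were seen, held 457, 449, 597 and 448 peaks (control 1, control 2, siORCA 1 and siORCA 2), between 49.9% and 55.3% of the peaks on 1.9 of 5.7 Mb. Its density was 241, 236, 314 and 236 peaks per Mb, and the other 3.8 Mb had 97.4, 118, 158 and 96.1. Peaks covered 9.91% to 12.6% of the block and 3.13% to 4.17% of the other parts. The rest of chromosome 19, at 156, 176, 251 and 160 peaks per Mb and 6.05% to 8.20% covered, lay between the block and the other parts in every list. As the block was chosen for its counts, these values are a description. Its edges were set where the counts stepped, so their sharpness follows from that choice. Bins of 100 kb overlapped between the parts. Those in the block held as few as 14, 10, 15 and 9 peaks, in the same order. Those outside it held as many as 22, 33, 41 and 24.

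At 56.9 Mb the counts per 100 kb went from 3 to 24 for control 1, from 6 to 17 for control 2, from 12 to 27 for siORCA 1 and from 7 to 19 for siORCA 2. At 58.8 Mb they went from 30 to 7, from 35 to 11, from 42 to 12 and from 38 to 7, in the same order. The outer bounds themselves were no such steps, but counts fell shortly before 55 Mb. The 1 Mb before it had 193, 222, 271 and 204 peaks per Mb, and the first 2 Mb inside had 98, 112, 148 and 96. The bin that starts 0.3 Mb before the bound still held 19, 22, 27 and 23 peaks. In the bins that meet at 55 Mb the counts were 2, 5, 8 and 3 before and 6, 7, 7 and 4 after the bound. At 60.7 Mb they were 11, 11, 20 and 11 before and 14, 11, 18 and 6 after.

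By windows of 1 Mb, the densest of 19q13.4 ran from 58 to 59 Mb, with 118 kb under peaks for control 1, 109 kb for control 2, 136 kb for siORCA 1 and 125 kb for siORCA 2. That put it above 99.1% of the windows of the genome or more in each list. The sparsest ran from 55 to 56 Mb, with 28.2, 28.8, 36.1 and 27.2 kb, and was still above 74.9% or more of the windows. In 19p12 the densest window by the mean over the 4 samples, from 22 to 23 Mb, had 2.03, 10.4, 14.02 and 0.204 kb covered, and the sparsest, from 21 to 22 Mb, had 1.38, 7.35, 4.82 and 0.132 kb. The lists did not share this order: for control 1 and siORCA 2 the window from 24 to 25 Mb held the most, at 3.47 and 1.95 kb, and for control 2 it held the least, at 5.22 kb. By the mean over the 4 samples, the 5 windows of 19p12 lay above only 12.6% to 29.0% of the windows of the genome.

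Where peaks were called in 19p12, they were narrower and weaker than in the rest of chromosome 19. The median width was 190 bp for control 1, 188 bp for control 2, 160 bp for siORCA 1 and 233 bp for siORCA 2. In the rest of the chromosome it was 275, 229.5, 205 and 261 bp, so the difference was −49.9 ± 24.5 bp (SD, n = 4, narrower in 4 of 4 samples; exact permutation of signs, p = 0.125). It was larger, at −85 bp, in control 1 than in the other samples, where it ran from −45 to −28 bp. Set against the other chromosomes, widths of 19p12 were no narrower as a set: the difference was −1.50 ± 19.4 bp and negative in 2 of 4 samples (SD, n = 4; exact permutation of signs, p = 0.875). Peaks of 1 kb or wider numbered 1, 0, 6 and 0 in 19p12, in the order of samples given.

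The median of the authors' fold enrichment over background was 3.50 for control 1, 3.79 for control 2, 4.13 for siORCA 1 and 4.26 for siORCA 2 within 19p12. In the rest of chromosome 19 it was 3.94, 4.15, 4.85 and 4.49 in the same lists. The difference was −0.44 ± 0.208 (SD, n = 4, lower in 4 of 4; exact permutation of signs, p = 0.125). The stronger peaks, at −log10 q of 3 or above, were 18.97%, 32.3%, 55.7% and 60% of those in 19p12, against 40.6%, 49.4%, 71.1% and 64.1% of the rest. The 20 peaks of siORCA 2 were the closest to those of the rest on both measures. Against the other chromosomes the fold difference was −0.19 ± 0.193 (SD, n = 4, lower in 3 of 4; exact permutation of signs, p = 0.25). For the share of stronger peaks it was −7.69 ± 8.34 percentage points (lower in 3 of 4; exact permutation of signs, p = 0.25). In both, siORCA 2 was higher than the other chromosomes.

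Peaks of at least 5-fold numbered 3, 19, 52 and 7 in 19p12, in the order of samples given, which was 5.17%, 11.6%, 24.8% and 35% of its peaks. Shares in the rest of chromosome 19 were 23.3%, 28.3%, 47.4% and 36.6%, so each list had the lower share in 19p12, by little for siORCA 2. Those of at least 10-fold numbered 8 for siORCA 1 (3.81%, against 12.2% in the rest) and 0 for the other 3 lists, where the rest had 2.75% to 4.96%. The strongest reached 6.69-fold for control 1, 9.998-fold for control 2 and 6.86-fold for siORCA 2. For siORCA 1 it reached 25.1-fold, in a peak of 938 bp from 24176517 to 24177454 that overlapped peaks of 2 other lists. The widest peak of 19p12, 2123 bp from 22742397 to 22744519, was found in siORCA 1 alone. By rank within its own whole list, the strongest 19p12 peak stood above 93.7% of peaks for control 1, 98.4% for control 2, 99.0% for siORCA 1 and 90.4% for siORCA 2.

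Peaks of 19q13.4 resembled those of the rest of the chromosome in these measures. Their median width was 274, 241, 207 and 280 bp, a difference of 7.88 ± 9.13 bp from the rest (SD, n = 4, wider in 3 of 4; exact permutation of signs, p = 0.25). Their median fold was 3.95, 4.18, 4.78 and 4.57, a difference of 0.01 ± 0.0592 (SD, n = 4; exact permutation of signs, p = 0.625). Both differences were within the spread between samples.

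**Figure D3:**
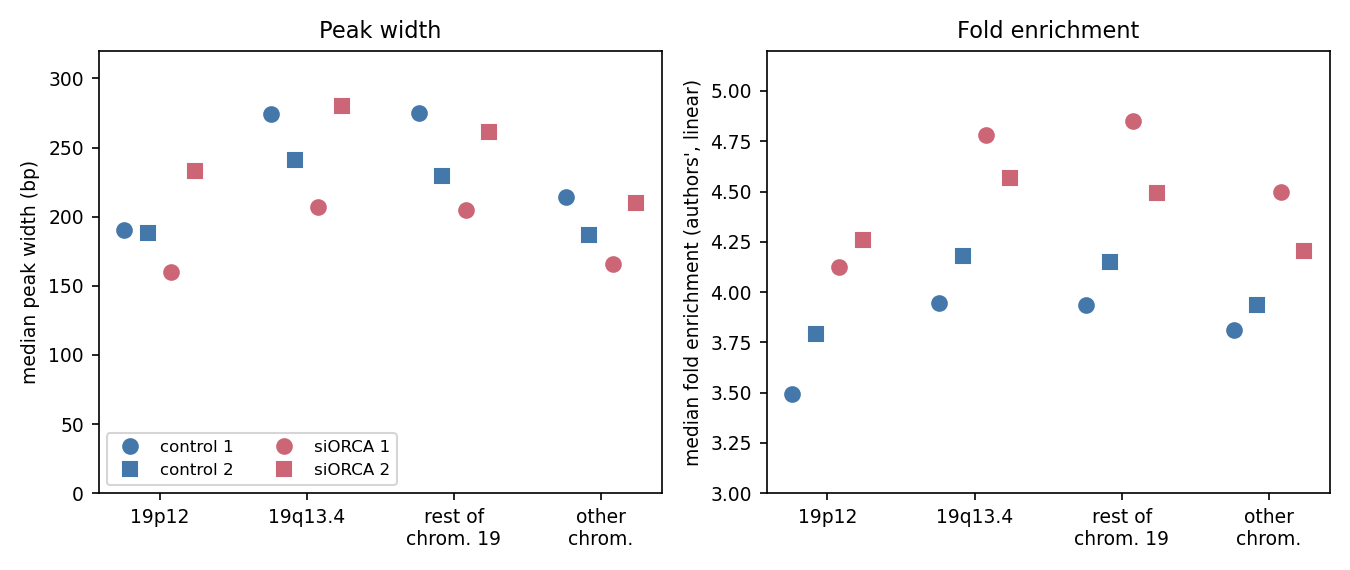
Median peak width in bp (left) and median of the authors' linear fold enrichment (right, axis from 3) per sample for 19p12, 19q13.4, the rest of chromosome 19 and the other chromosomes. In each sample the 19p12 point lies below that of the rest of chromosome 19, while 19q13.4 lies close to it.

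Peaks of 19p12 overlapped peaks of another list less often than peaks elsewhere did. Of its peaks, 27 of 58 (46.6%) for control 1, 40 of 164 (24.4%) for control 2, 48 of 210 (22.9%) for siORCA 1 and 15 of 20 (75%) for siORCA 2 overlapped a peak of another list by at least 1 bp. In the rest of chromosome 19 these shares were 82.5%, 72.5%, 65.7% and 89.1%, and in 19q13.4 they were 78.4%, 70.3%, 67.4% and 88.3%. The difference between 19p12 and the rest was −35.2 ± 14.98 percentage points (SD, n = 4, lower in 4 of 4 samples; exact permutation of signs, p = 0.125). That of 19q13.4 was −1.34 ± 2.45 points (lower in 3 of 4), within the spread between samples. Such overlap also depends on how much of a region peaks cover, which was far less in 19p12. The part of this in the lower shares was not tested.

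Most peaks of the shortest 19p12 list recurred in the longest. Of the 20 peaks of siORCA 2, 12 (60%) overlapped a siORCA 1 peak, 10 (50%) a control 2 peak and 9 (45%) a control 1 peak. The 2 long lists shared little: 36 of 164 control 2 peaks (21.95%) overlapped siORCA 1, and 37 of 210 siORCA 1 peaks (17.6%) overlapped control 2. The Jaccard index, the bases in both lists over those in either, was 0.0550 to 0.125 for the 6 pairs in 19p12. It was 0.239 to 0.398 in 19q13.4. Unequal lists limit this index: in 19p12 peaks covered 5978 bp for siORCA 2 and 53764 bp for siORCA 1. The values of the 2 clusters are therefore not directly comparable.

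Shared peaks were the wider and stronger ones in each list. In siORCA 1, the 48 peaks of 19p12 found in another list had a median width of 299.5 bp and a median fold of 5.38, and the 162 found in that list alone had 146.5 bp and 3.94. In control 2, the 40 shared peaks had 345.5 bp and 4.39, and the 124 others 175.5 bp and 3.67. The same order held in control 1 (220 against 153 bp) and siORCA 2 (262 against 150 bp), where only 5 peaks were not shared. It also held in 19q13.4, with 264 to 335 bp for shared and 136.5 to 175 bp for other peaks.

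Merged over the 4 lists, the peaks of 19p12 formed 374 regions, of which 322 (86.1%) were found in 1 list only and 6 (1.604%) in all 4. In 19q13.4 there were 1804 regions, 930 (51.6%) in 1 list only and 341 (18.9%) in all 4. In the rest of chromosome 19, 50.3% of 16288 regions were in 1 list only and 17.8% in all 4. Regions found in all 4 lists thus numbered 1.13 per Mb in 19p12, against 59.8 in 19q13.4 and 63.4 in the rest. The 20 peaks of siORCA 2 in 19p12 set a limit here: at most 20 of the 374 regions could be in all 4 lists. The low value in 19p12 is therefore not a measure of agreement alone.

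**Figure D4:**
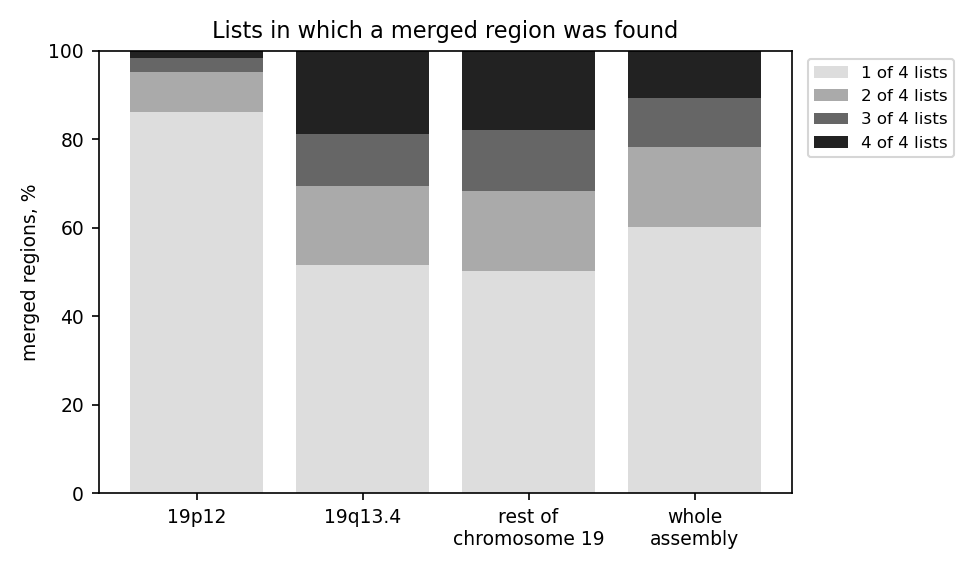
Merged regions of each part as percent of all its merged regions, stacked by the number of lists in which the region was found. In 19p12, 86.1% of 374 regions were in 1 list only, against 51.6% of 1804 in 19q13.4, 50.3% in the rest of chromosome 19 and 60.1% over the assembly.

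The 6 regions of 19p12 found in all 4 lists are few enough to place. Of these, 5 lay within 0.2 Mb of the start of the cluster: from 19719105 to 19720042, 19756477 to 19756762, 19764639 to 19765355, 19790128 to 19791393 and 19884250 to 19885043. The other ran from 24148381 to 24149426, deep in the cluster. By the lowest of its 4 fold enrichments, that last region ranked highest of the 6. Peaks took 582 bp of it for control 1, 816 bp for control 2, 577 bp for siORCA 1 and 875 bp for siORCA 2, at 5.59-fold, 6.29-fold, 5.79-fold and 6.36-fold.

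The next by that rule, from 19719105, was covered over 441, 581, 450 and 815 bp, at 6.69-fold, 4.94-fold, 6.17-fold and 5.39-fold. The third, from 19790128, was covered over 924, 654, 1119 and 590 bp, at 4.42-fold, 5.60-fold, 10.4-fold and 6.80-fold. Their folds exceeded those of 71.1% or more of the peaks in each whole list. At these 3 regions neither group was higher than the other in both width and fold. At the third, both siORCA folds were above both control folds while covered lengths overlapped. There the ranks within the own list were 92.0% and 90.1% for siORCA and 71.1% and 86.5% for control. At the region from 19756477 both siORCA samples were above both controls in covered length (254 and 266 against 168 and 138 bp) and in fold (5.17 and 6.80 against 4.16 and 4.15). At that from 19884250 both siORCA folds were higher (4.80 and 6.86 against 4.23 and 3.47) while covered lengths overlapped. At that from 19764639 the groups overlapped in both. Folds were higher over the whole siORCA lists too. By rank within its own whole list, the region from 19756477 stood above 63.7% and 58.1% of peaks for the controls. For siORCA 1 and siORCA 2 it stood above 62.8% and 90.2%. The region from 19884250 stood above 65.9% and 24.3% for control and 56.4% and 90.4% for siORCA. At both regions siORCA 1 thus ranked below control 1. How often groups separated over all regions found in all 4 lists was not counted.

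In 19q13.4, 227 of the 341 regions found in all 4 lists lay in the block from 56.9 to 58.8 Mb. The strongest by the same rule, from 58378879 to 58379626, had 48.1-fold enrichment for control 1, 33.7-fold for control 2, 46.7-fold for siORCA 1 and 36.8-fold for siORCA 2. It exceeded at least 99.8% of peaks in each list. The next were from 59206301 to 59207460, at 13.6-fold, 16.7-fold, 14.3-fold and 13.97-fold, and from 59259092 to 59259721, at 12.9-fold, 13.2-fold, 22.4-fold and 15.5-fold. At each of these the lowest of the 4 folds was 12.9-fold or more, while in 19p12 the best region by this rule had 5.59-fold as its lowest.

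Between siORCA and control, 19p12 did not separate. The log2 ratio of covered share to the rest of chromosome 19 was −4.29 for control 1, −2.87 for control 2, −3.01 for siORCA 1 and −5.78 for siORCA 2. The siORCA 1 value fell between the controls, and siORCA 2 below them. The means were −3.58 ± 1.008 for control and −4.40 ± 1.95 for siORCA, a difference of −0.82 (SD; 2 samples per group; exact permutation of labels, p = 0.667). For density the means were −3.17 ± 0.941 and −4.03 ± 1.94, a difference of −0.86 (SD; 2 samples per group; exact permutation, p = 0.667). The direction rested on siORCA 2: without it the differences were 0.56 and 0.51, above control.

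In 19q13.4 the same log2 ratio of covered share was −0.09 for control 1, −0.12 for control 2, −0.23 for siORCA 1 and −0.09 for siORCA 2. The groups overlapped, at −0.11 ± 0.0258 for control and −0.16 ± 0.105 for siORCA (SD; 2 samples per group; exact permutation, p = 1), and without siORCA 1 the difference turned to 0.02. For density the ratios were −0.11 and −0.160 in control and −0.26 and −0.162 in siORCA. Here the groups did not overlap, though control 2 and siORCA 2 were nearly equal, and the difference was −0.08 (2 samples per group; exact permutation, p = 0.333, the smallest that 2 against 2 samples allow). Over windows of the genome, groups did not overlap in 30.7% of cases.

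**Figure D5:**
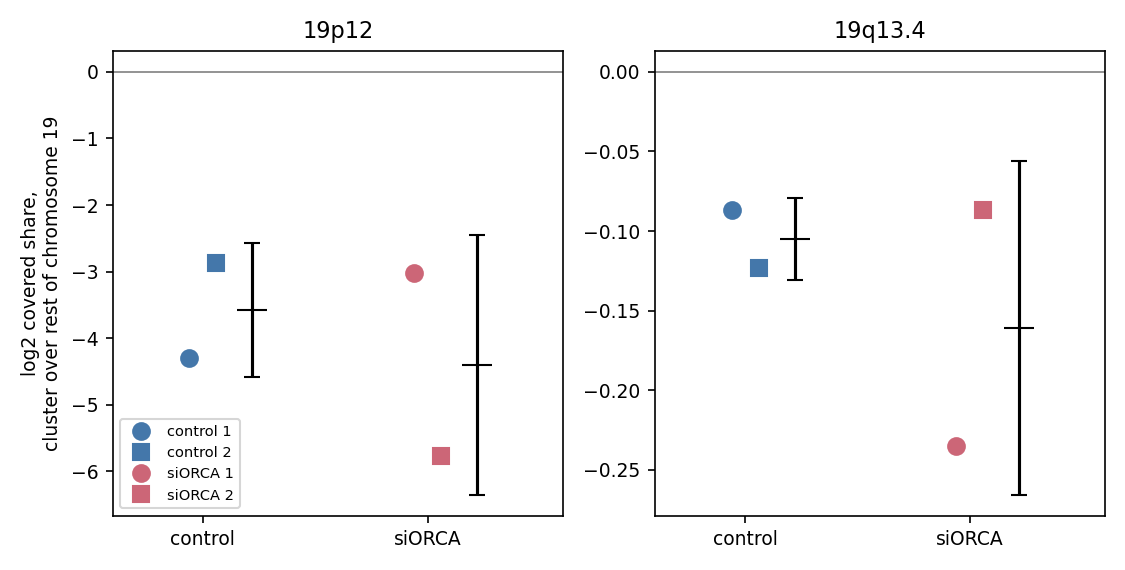
Log2 of the covered share in a cluster over that in the rest of chromosome 19, per sample (points), with group mean and SD (black, n = 2 each), for 19p12 (left) and 19q13.4 (right, another scale). The siORCA samples lie on both sides of the control mean in each cluster, and the spread in 19p12 is between samples of 1 group.

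Median widths did not separate the groups in either cluster. In 19p12 they were 189 ± 1.41 bp for control and 196.5 ± 51.6 bp for siORCA, and in 19q13.4 257.5 ± 23.3 bp and 243.5 ± 51.6 bp (SD; 2 samples per group; exact permutation, p = 1 for both). The siORCA 1 list had the narrowest and siORCA 2 the widest peaks in both clusters, so that without siORCA 2 the difference in 19p12 turned to −29 bp. In 19q13.4 it turned to 22.5 bp without siORCA 1 and to 2.50 bp without control 1.

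Both siORCA lists had a higher median fold than both control lists in each cluster. In 19p12 it was 3.64 ± 0.210 for control and 4.19 ± 0.0936 for siORCA, and in 19q13.4 4.06 ± 0.165 and 4.67 ± 0.153 (SD; 2 samples per group; exact permutation, p = 0.333 for both). On the other chromosomes it was 3.87 ± 0.0894 and 4.35 ± 0.209. The difference was of the same kind over the whole lists, and relative to the rest of chromosome 19 the groups overlapped in both clusters. The share of peaks at −log10 q of 3 or above was also set against the rest. In 19p12 the difference was −21.6 and −17.1 percentage points for the controls and −15.4 and −4.06 for siORCA. The groups did not overlap there (exact permutation, p = 0.333, the smallest possible). The siORCA 2 value rests on 12 of 20 peaks. In 19q13.4 the groups overlapped, at −0.92 and 1.23 points for control and −2.67 and 1.38 for siORCA. How often groups separate in this measure over like regions was not counted.

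By windows of 1 Mb, siORCA was compared with control over the genome with limma on the log2 share of covered length. Of the 10 windows wholly inside the clusters, 7 passed the filter of a mean of 5 kb covered, 2 of 5 in 19p12 and 5 of 5 in 19q13.4. None was called (0 of 7 in limma, and 0 of 7 at an unadjusted p under 0.05), where 0.0812% of 2464 windows of the genome were called. By share of each list's covered length, both siORCA values lay below both control values in 1 of 7 windows, from 55 to 56 Mb. Over the genome 19.9% of windows did so in that direction. In kb covered, siORCA 1 was the highest of the samples in that window, at 36.1 kb.

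The windows with the smallest p were those of 19p12. In that from 23 to 24 Mb, the covered length was 3.40 kb for control 1, 7.502 kb for control 2, 12.3 kb for siORCA 1 and 0.279 kb for siORCA 2. The groups overlapped, and the log2 difference (siORCA minus control) was −0.82 with an SE of 0.69 (limma, adjusted p = 0.930). From 22 to 23 Mb, where the covered lengths are given above, it was −0.71 with an SE of 0.71 (limma, adjusted p = 0.930). In both windows siORCA 1 was the highest and siORCA 2 the lowest of the 4 samples.

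The 2 siORCA samples pulled these windows opposite ways. Without siORCA 1, which leaves siORCA 2 as the only treated sample, both were called lower, at −2.29 and −2.32 (limma, adjusted p = 0.0331 for both). In that fit 2.6% of the 2464 windows were called lower, 64 in all, against 0 with all 4 samples. Without siORCA 2 the differences were 0.65 and 0.89, and without control 2 the window from 22 Mb was at 0.15; neither passed the test. The fits with a single siORCA sample assume that it varies like the controls. In the 5 windows of 19q13.4 the log2 differences ran from −0.12 to −0.05 (limma, adjusted p between 0.936 and 0.989), close to the median of −0.09 over all windows tested. After median centring, 2 of the 5 were just above 0.

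Regions present in both siORCA lists and neither control list numbered 3 of 374 in 19p12 (0.802%), and those present in both controls and neither siORCA list 2 (0.535%). Over the genome 5.44% of merged regions were gained in this sense and 1.67% lost. A gained region needs a siORCA 2 peak, and that list had 20 in 19p12, so at most 20 of 374 could count. The gained shares of 19p12 and the genome are therefore not directly comparable. In 19q13.4 98 of 1804 were gained (5.43%) and 34 lost (1.88%), shares near those of the genome. These counts need agreement of both replicates: without siORCA 2, 165 regions of 19p12 and 488 of 19q13.4 counted as gained, and without control 1, 126 and 300 counted as lost. With all 4 lists the ratio of gained to lost was 2.88 in 19q13.4 and 2.90 in the rest of chromosome 19.

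The widest gained region of 19p12 ran from 24199476 to 24199808 and held 333 bp of peak for siORCA 1 and 151 bp for siORCA 2. The next ran from 21412020 to 21412268, with 228 and 132 bp. The 2 lost regions ran from 21160501 to 21161027, with 119 bp for control 1 and 527 bp for control 2, and from 22839603 to 22839745, with 143 and 133 bp. In 19q13.4 the widest gained regions were from 60492756 to 60493929 (1174 and 180 bp) and from 56361444 to 56362456 (1005 and 377 bp). The widest lost were from 57729056 to 57730259 (324 and 1145 bp) and from 58000007 to 58001059 (544 and 752 bp).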

How the data were processed

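The 4 peak lists were analysed as deposited. Peaks come from BWA, SAMtools and MACS2 on T2T-CHM13, per the submitters' processing notes, and versions, settings and the caller's background are not given in the sources used here. Lists were deposited per sample and give position, score, linear fold enrichment (a ratio) and −log10 p and q, all computed by the authors. The score was not used. Read depth is unknown, so only lists, not reads, could be matched.

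Peaks were assigned by their start. Density, covered share (sum of widths over length) and medians were computed per sample with scipy 1.17.1, pandas 2.3.3 and numpy 2.4.6 under Python 3.11.15. Assembly lengths were taken up to the last peak end in any list. Regions merge touching or overlapping peaks. Windows of 1 Mb, nuclear chromosomes only, were compared with limma 3.58.1 in R 4.3.3 (trend, Benjamini-Hochberg, threshold 0.05). The values were log2 of covered bp plus 1000 over the total, which understates changes of sparse windows. This step was tested on simulated data with the same noise in every window. That noise was smaller than the spread in the 19p12 windows, so the simulation does not show what could be found there. The bounds and comparisons were chosen with earlier results of these data known. Named windows were those called, otherwise the 2 with the smallest p each way (none was higher), plus the densest and sparsest per cluster. Named regions were the 3 in all 4 lists with the highest lowest-of-4 fold, the 2 widest gained and lost, and the 2 longest stretches without peaks. Neither sequence nor annotation of T2T-CHM13 was at hand, so the planned comparison by gene class was not run and no sequence is shown.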

Additional observations from a re-analysis of the deposited data

How the results depend on the processing

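Each of 28 results was recomputed under its alternatives. The low density and covered share of 19p12 kept their direction in all of them (density log2 ratio from −4.14 to −2.27). Width and fold did so too, but their alternatives were other lists and left-out samples only, with no other reference. Against the other chromosomes the width difference was −1.50 bp (negative in 2 of 4 samples) and the fold difference −0.19 (negative in 3 of 4). With the other chromosomes as reference the ratios of 19q13.4 turned to 1.16 for density and 1.51 for covered share. With the stricter list (−log10 q of at least 3) the siORCA difference in median width of 19p12 turned to −30.8 bp, the lost regions fell to 0 in 19p12 and 9 in 19q13.4, and the fold difference of 19q13.4 turned to −0.0087. At matched list length 4 regions were lost in 19p12 and 58 gained in 19q13.4, and with gaps of 1 kb merged 57 were gained there.
Windows of 19q13.4 turned to 0.0210 (from 57 Mb) and 0.0483 (from 58 Mb) with median centring, and to 0.0205 and 0.0301 at matched list length. Leaving out each replicate gave, for siORCA minus control in 19p12, −2.20 to 0.56 for covered share, −2.23 to 0.51 for density and −29 to 44 bp for width, and in 19q13.4 −0.13 to 0.0184 for covered share and −50.5 to 22.5 bp for width. The fold difference of 19q13.4 from the rest ran from −0.0092 to 0.0377. Gained regions ran from 4 to 165 in 19p12 and 157 to 488 in 19q13.4, and lost ones from 3 to 126 and 63 to 300, as presence was then asked of fewer samples. Cluster windows called ran from 0 to 2, and the windows ran from −2.32 to 0.89 (22 Mb), −2.29 to 0.65 (23 Mb), −0.34 to 0.12 (56 Mb), −0.21 to 0.0665 (57 Mb), −0.20 to 0.11 (58 Mb) and −0.30 to 0.0563 (59 Mb). For the other changes the cause was not tested.

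With the replicate block no window was called and the differences of covered share stayed at −0.82 in 19p12 and −0.06 in 19q13.4. Same-numbered samples deviated apart (correlation −0.458 over 2464 windows), so the numbers were not taken as a pairing; the crossed replicate block, added after the data were seen, called 3 windows higher and 1 lower, 0 of them in the clusters. The planned comparison by gene class was not run. With 2 samples a group, exact p-values cannot go below 0.333, and sparse windows of 19p12 rest on few peaks.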
